A study of Mus musculus with 23 samples.

Results

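The genes described here were 5 subunits of the transcription factor NF-kB (Nfkb1, Nfkb2, Rel, Rela and Relb) and 5 genes that NF-kB induces and that feed back on it (Nfkbia, Nfkbie, Tnfaip3, Birc3 and Tnf). They were chosen as listed symbols, each read from the probe set of highest mean that the array annotation gives to a single gene. Of the 10 listed genes, 9 had such a probe set, 1 probe set each, and all 9 passed the filter on low values, among 19938 genes in the series. Nfkb1 was not analysed here. RNA came from bone marrow of mice given a single dose of 2 Gy at 2 months of age, and each sample was measured on its own array. The groups were leukemic samples of 10 Pax5+/- mice (1 to 10), preleukemic cells of 7 Pax5+/- mice (11 to 13 and 21 to 24), leukemic samples of 3 wild-type (WT) mice (14, 15 and 17), and preleukemic cells of 3 WT mice (18 to 20). A WT leukemia with sample number 16 was not used here. Pax5+/- mice carry 1 functional copy of Pax5, which encodes the transcription factor that commits lymphoid progenitors to the B lineage. Preleukemic cells, labelled pro-B and pre-B, were taken 3 weeks after the dose. Every mouse was irradiated, so no group shows unexposed cells. The titles speak of leukemic pro-B cells while the descriptions speak of leukemic bone marrow, and no sort is stated for either stage. The comparison of stages thus also spans the labelled cell types, the time after the dose and age, which cannot be told apart here.

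NF-kB proteins act as dimers. In resting cells inhibitors of the IkB family, among them the products of Nfkbia (IkB-alpha) and Nfkbie (IkB-epsilon), hold RelA and c-Rel dimers in the cytoplasm, and signals from receptors such as those for TNF, IL-1 and microbial products lead to destruction of the inhibitors and release of the dimers. A slower, noncanonical branch processes the p100 product of Nfkb2 to p52, which pairs with RelB. Released dimers induce their own inhibitors as well as Tnfaip3, which encodes the ubiquitin-editing enzyme A20 that dampens the pathway, and Birc3, which encodes the ubiquitin ligase cIAP2. In the B lineage the pathway is known for its part in pre-B cell maturation and in survival of mature B cells.

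Promoter windows are shown first, because the kB element that NF-kB dimers recognise is what ties feedback targets to the subunits. The motif searched was GGG, any 3 bases, then TTCC, on both strands. Each window was the 250 bases before a start given for the gene in the RefSeq promoter annotation of GRCm38.p6. Of the 9 genes, 8 had a window and 5 of these held a match (Nfkb2, Rel, Nfkbia, Nfkbie and Tnfaip3), while Rela, Birc3 and Tnf held none. Matches did not divide the genes by direction, since Rela and Birc3 without a match were lower in Pax5+/- leukemia, as were the 5 genes with one, and Tnf was higher. Relb had no window. Every window of Nfkb2, and a second window of Tnfaip3, lay inside the annotated gene, and those of Rela and Birc3 overlapped it. Over all genes with a window, 5.31% of 27025 held a match. A looser motif, GGG, any 5 bases, then CC, which includes every match to the stricter one, was in 48.7% of genes. The 5 windows that lie wholly before the annotated gene are printed 5′ to 3′ on the strand of the gene, with the match in capitals.
Nfkbia, chr12:55492648-55492897, minus strand: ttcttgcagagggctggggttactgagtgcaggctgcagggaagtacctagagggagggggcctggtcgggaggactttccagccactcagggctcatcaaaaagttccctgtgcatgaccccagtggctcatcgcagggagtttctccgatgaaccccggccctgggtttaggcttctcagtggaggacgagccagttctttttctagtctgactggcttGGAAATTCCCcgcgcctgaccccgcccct
Nfkbie, chr17:45555450-45555699, plus strand: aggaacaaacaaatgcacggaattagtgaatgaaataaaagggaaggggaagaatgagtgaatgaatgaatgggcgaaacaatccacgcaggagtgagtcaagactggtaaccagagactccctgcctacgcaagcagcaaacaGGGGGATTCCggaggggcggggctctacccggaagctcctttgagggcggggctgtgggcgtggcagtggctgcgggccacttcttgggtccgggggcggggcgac
Tnfaip3, chr10:19015411-19015660, minus strand: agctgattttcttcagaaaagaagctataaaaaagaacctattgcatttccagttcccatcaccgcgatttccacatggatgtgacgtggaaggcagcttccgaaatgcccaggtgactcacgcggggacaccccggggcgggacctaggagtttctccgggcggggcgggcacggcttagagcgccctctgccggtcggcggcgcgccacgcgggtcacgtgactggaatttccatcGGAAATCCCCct
Rel, chr11:23770970-23771219, minus strand: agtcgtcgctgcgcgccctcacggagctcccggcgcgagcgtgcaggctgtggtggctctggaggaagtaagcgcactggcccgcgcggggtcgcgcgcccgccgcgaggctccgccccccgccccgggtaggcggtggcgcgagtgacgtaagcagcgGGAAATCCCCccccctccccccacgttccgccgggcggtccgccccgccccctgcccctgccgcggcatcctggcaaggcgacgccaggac
Tnf, chr17:35202008-35202257, minus strand: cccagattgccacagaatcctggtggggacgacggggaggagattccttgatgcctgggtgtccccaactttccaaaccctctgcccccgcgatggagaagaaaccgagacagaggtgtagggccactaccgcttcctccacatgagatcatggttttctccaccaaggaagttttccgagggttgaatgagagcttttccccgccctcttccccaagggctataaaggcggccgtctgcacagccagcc
In the printed windows, the match in Tnfaip3 began 12 bases before the gene start, that in Nfkbia 29 bases, that in Rel 91 bases and that in Nfkbie 106 bases. Rel and Tnfaip3 held the same 10 letters, GGAAATCCCC, and Nfkbia held GGAAATTCCC, all on the strand opposite to the gene. The match in Nfkbie, GGGGGATTCC, lay on the strand of the gene. A match describes letters and was not tested for binding, and no match says only that these letters are not in this window.

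Values are log2 signals as deposited, and differences are leukemic minus preleukemic or Pax5+/- minus WT on that scale. Array medians lay between 6.06 and 6.2. Precision is limited by how many arrays each group holds. All 9 genes lay above the array median in every sample. Of 11 measured B cell precursor markers, 11 exceeded the array median throughout the preleukemic samples, 10 in every Pax5+/- leukemia and 9 in every WT leukemia, and their mean level ran from 9.81 to 11.01 in the Pax5+/- leukemias and from 11.46 to 11.83 in Pax5+/- preleukemic cells. In limma, 7 of these 11 markers fell in the Pax5+/- leukemias, and their mean differed by -1.22 (exact permutation p = 0.000103). Of the markers of other cells, several lists rose in most of their genes in the Pax5+/- leukemias. The mean of 12 monocyte and macrophage markers ran from 6.97 to 9.33 in the Pax5+/- leukemias against 6.09 to 6.33 before leukemia (9 of 12 rose in the limma test), and those of 14 neutrophil markers from 6.11 to 10.89 against 6.08 to 6.82 (10 of 14 rose). Megakaryocyte markers ran from 7.93 to 10.81 against 6.57 to 6.78 (6 of 6 rose), and stromal and endothelial markers from 7.44 to 8.62 against 6.55 to 6.75 (8 of 10 rose, 1 fell). The means of the other lists shifted less, though 4 of 7 plasmacytoid dendritic cell markers rose and 1 fell in limma. The mean of T cell markers differed by 0.48 (exact permutation p = 0.00319) and that of erythroid markers by -0.45 (exact permutation p = 0.00607), while plasmacytoid dendritic cell (0.62, p = 0.0666), mature B cell (-0.29, p = 0.0756), plasma cell (0.13, p = 0.13) and NK cell markers (0.10, p = 0.627) did not pass in the same exact permutation test. In bulk RNA, fewer cells of a type and less RNA per cell cannot be told apart. Pax5+/- leukemia 2 had the highest monocyte (9.33), T cell (7.49), NK cell (7.03), mature B cell (8.22) and stromal and endothelial (8.62) marker levels of its group. It also had the lowest B cell precursor (9.81) and plasma cell (8.03) levels. Among WT samples, leukemia 15 had the highest NK cell marker level (9.34) and the lowest B cell precursor level (8.54), leukemias 15 and 17 had erythroid levels of 8.76 and 8.93, and preleukemic sample 20 had a neutrophil level of 10.68. Xist, a transcript of the inactive X chromosome in females, was above the array median in 3 of 3 WT leukemias and 0 of 3 WT preleukemic samples, so that sex and stage coincided in WT mice, and in 6 of 10 leukemic and 3 of 7 preleukemic Pax5+/- samples.

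In Pax5+/- mice, 8 of the 9 genes were lower in leukemia and Tnf was higher. The falls were largest for the inhibitor genes Tnfaip3 (4.07-fold), Nfkbie (3.00-fold) and Nfkbia (2.61-fold) and for Birc3 (2.68-fold), intermediate for Nfkb2 (2.06-fold), Relb (1.5-fold) and Rel (1.45-fold), and smallest for Rela (1.11-fold), while Tnf rose 3.85-fold. All 9 passed an adjusted p of 0.05 in limma, against 64.6% of 15542 genes tested (28.0% higher and 36.5% lower). Because most genes passed, the count itself sets the members little apart. Their median difference was -1.04, against -0.05 over all genes tested, and the share of tested genes with a larger absolute difference was 2.16% for Tnfaip3, 2.39% for Tnf, 4.03% for Nfkbie, 5.22% for Birc3, 5.56% for Nfkbia and 9.29% for Nfkb2. For Relb it was 21.8%, for Rel 24.2% and for Rela 66.1%, so that the shift of Rela was smaller than that of most genes tested. Some members are described below as having stages that did not overlap. The share of all genes tested without overlap in Pax5+/- mice was not counted, so that trait does not set them apart.

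**Figure D1:**
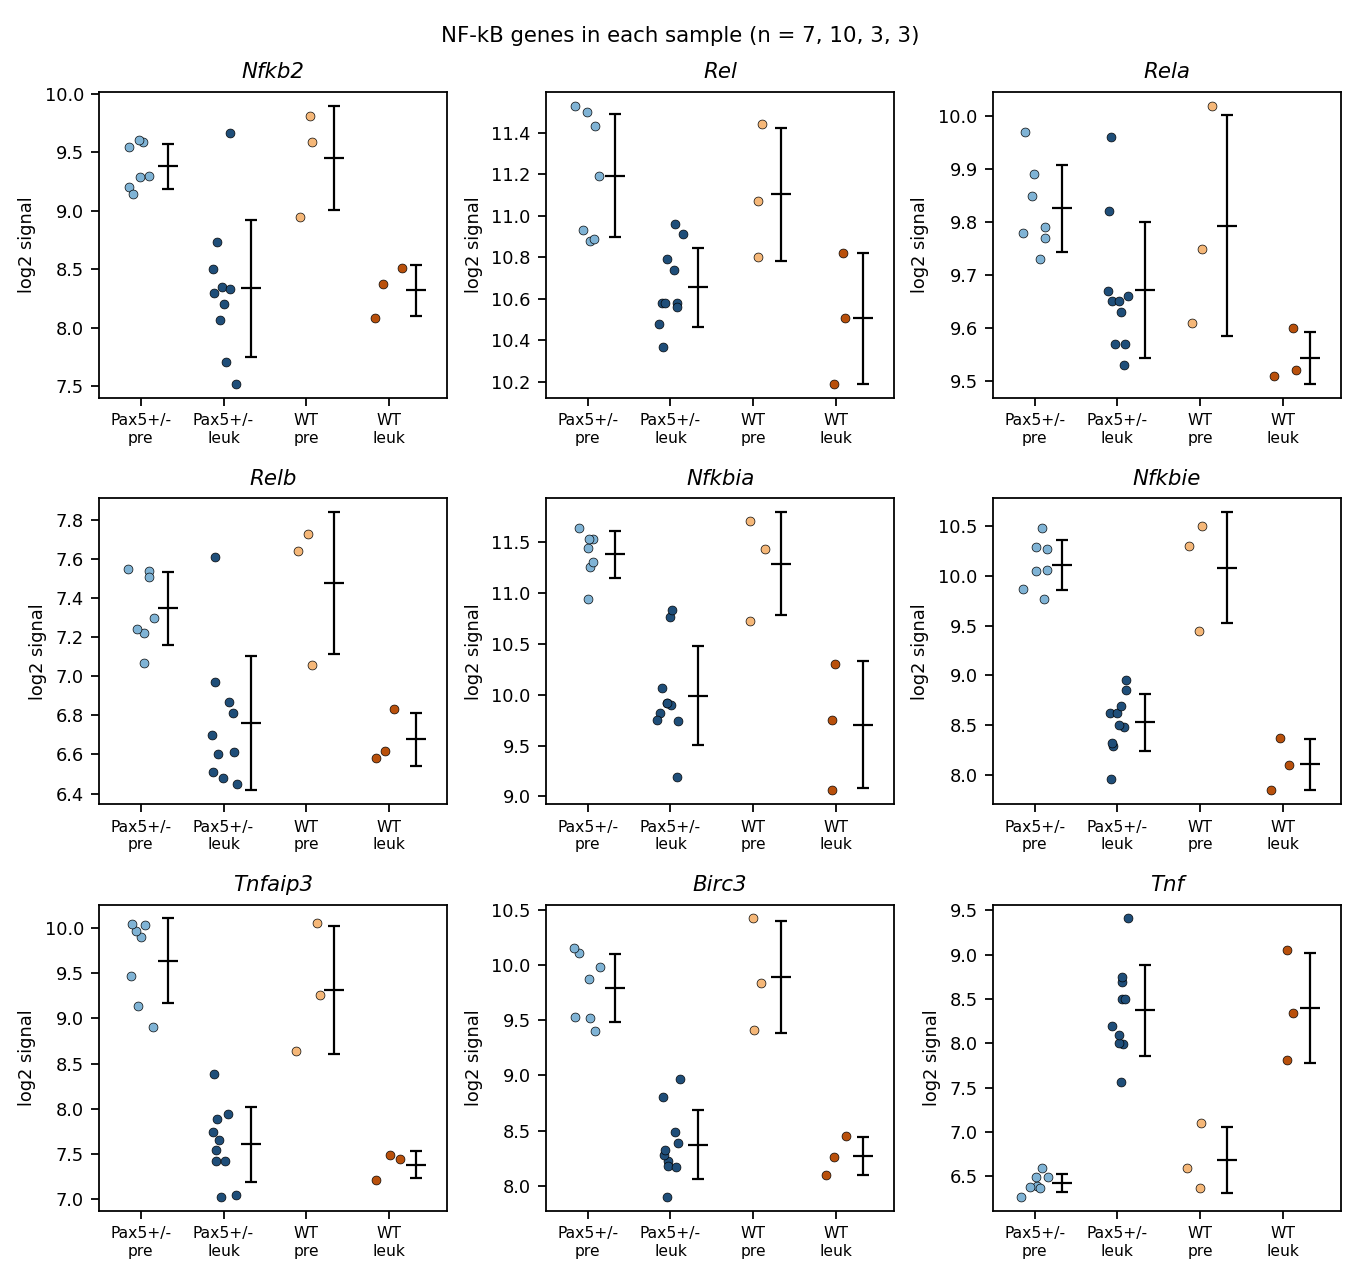
Log2 signal of the 9 NF-kB genes in each sample of the 4 groups, with points for samples and bars for the group mean and SD (n = 7, 10, 3 and 3 from left to right). Tnfaip3, Nfkbie, Nfkbia and Birc3 lie lower in leukemia with no overlap in either genotype, and Tnf lies higher. The share of all genes without overlap was not counted. Nfkb2 and Relb of Pax5+/- leukemia 2 (9.66 and 7.61) lie above the Pax5+/- preleukemic samples.

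The subunits came first in this comparison. Nfkb2, the precursor of p52, measured 9.14 at the lowest, 9.30 at the median and 9.60 at the highest in Pax5+/- preleukemic cells (9.38 ± 0.19, SD, n = 7). The leukemias measured 7.52, 8.32 and 9.66 (8.34 ± 0.59, SD, n = 10). Leukemia 2 lay above every preleukemic sample and the other 9 lay below all of them, and the difference was -1.04 (SE 0.21, limma adjusted p = 0.000221, exact permutation p = 0.000926). Relb, the partner of p52, behaved alike in the same samples. It measured 7.07, 7.30 and 7.55 before leukemia (7.35 ± 0.19, SD, n = 7) and 6.45, 6.66 and 7.61 in leukemia (6.76 ± 0.35, SD, n = 10). Again leukemia 2 was above and the other 9 below all preleukemic samples, and Relb differed by -0.59 (SE 0.14, limma adjusted p = 0.000914, exact permutation p = 0.00247). Without leukemia 2 the differences were -1.19 for Nfkb2 and -0.68 for Relb. Rel encodes c-Rel, a subunit prominent in lymphocytes. It measured 10.88, 11.19 and 11.53 before leukemia (11.19 ± 0.30, SD, n = 7) and 10.37, 10.58 and 10.96 in leukemia (10.66 ± 0.19, SD, n = 10). Of the leukemias, 8 lay below all preleukemic samples and leukemias 3 and 4 lay within their range, with a difference of -0.54 (SE 0.12, limma adjusted p = 0.000674, exact permutation p = 0.000926).

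Rela, which encodes the p65 subunit of the canonical dimer, changed least. It measured 9.73, 9.79 and 9.97 in preleukemic cells (9.83 ± 0.08, SD, n = 7) and 9.53, 9.65 and 9.96 in the leukemias (9.67 ± 0.13, SD, n = 10). The fall was 0.16 on the log2 scale (SE 0.06, limma adjusted p = 0.0369, exact permutation p = 0.0173), with 8 of 10 leukemias below all preleukemic samples and leukemias 3 and 7 within their range. This call was the least secure of the 9. It was lost when any one of 8 of the 17 samples was left out (leukemias 1, 5, 6, 9 and 10, preleukemic samples 21, 22 and 23; adjusted p up to 0.0889), and after median centring of the arrays (-0.14, adjusted p = 0.0741).

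Among the inhibitors, Tnfaip3 fell most. Preleukemic samples measured 8.90, 9.90 and 10.04 (9.63 ± 0.47, SD, n = 7) and the leukemias 7.03, 7.61 and 8.38 (7.61 ± 0.41, SD, n = 10). The groups did not overlap, the highest leukemia being leukemia 2, and the difference was -2.03 (SE 0.21, limma adjusted p = 6.15e-08, exact permutation p = 0.000103). Nfkbie measured 9.77, 10.06 and 10.48 before leukemia (10.11 ± 0.25, SD, n = 7) and 7.96, 8.56 and 8.95 in leukemia (8.53 ± 0.29, SD, n = 10). Its groups were apart as well, with a difference of -1.59 (SE 0.15, limma adjusted p = 1.37e-08, exact permutation p = 0.000103). Nfkbia measured 10.94, 11.44 and 11.63 before leukemia (11.37 ± 0.23, SD, n = 7) and 9.19, 9.91 and 10.83 in leukemia (9.99 ± 0.48, SD, n = 10). Leukemias 2 and 3, at 10.76 and 10.83, came close to the lowest preleukemic sample, and the remaining 8 lay at or below 10.06. The difference for Nfkbia was -1.39 (SE 0.21, limma adjusted p = 7.8e-06, exact permutation p = 0.000103).

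Birc3 is both a target of NF-kB and a ubiquitin ligase of TNF receptor complexes. It measured 9.40, 9.87 and 10.15 in preleukemic cells (9.79 ± 0.31, SD, n = 7) and 7.90, 8.30 and 8.97 in the leukemias (8.37 ± 0.31, SD, n = 10). All 10 leukemias lay below all 7 preleukemic samples, leukemias 2 and 3 again being highest, and the difference was -1.42 (SE 0.15, limma adjusted p = 1.09e-07, exact permutation p = 0.000103). Tnf, the cytokine that both activates and is induced by NF-kB, went the opposite way. It measured 6.27, 6.39 and 6.59 before leukemia (6.43 ± 0.11, SD, n = 7) and 7.57, 8.35 and 9.41 in leukemia (8.37 ± 0.51, SD, n = 10). Every leukemia lay above every preleukemic sample, with a difference of 1.95 (SE 0.20, limma adjusted p = 5.37e-08, exact permutation p = 0.000103). The preleukemic samples were closely spaced and the leukemias spanned a wide range, from leukemia 9 at 7.57 to leukemia 2 at 9.41.

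The rise of Tnf was smaller in a fit that included markers of other cells. When the mean level of monocyte, neutrophil, megakaryocyte and stroma markers was a covariate in the fit, the difference of Tnf was 1.09 in place of 1.95 (limma adjusted p = 0.00315), and Rel (-0.37, adjusted p = 0.187) and Rela (-0.04, adjusted p = 0.791) no longer passed, while the other 6 did. Of those 6, Nfkbie fell less with the covariate (-1.45). The falls of Nfkb2 (-1.59), Nfkbia (-1.56), Relb (-0.755), Tnfaip3 (-2.11) and Birc3 (-1.49) were larger with it. Since these markers also differed between the stages, a covariate can remove part of the stage difference as well. The part of the other cells in these differences was not tested.

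In WT mice the same question was asked with 3 samples a stage, and 7 genes were lower and Tnf was higher. In all, 8 of the 9 passed limma's test, against 37.2% of 15542 genes (17.9% higher, 19.3% lower), and the median difference was -1.13 against -0.06 over all genes tested. With 3 samples against 3 an exact test can reach p = 0.1 at best. That value was reached by 8 of the 9 genes, whose groups did not overlap, and Rel gave p = 0.2. The share of all genes tested that reached it was not counted, so the count does not set the 9 genes apart. Without WT samples 15, 17 and 20, which stood apart in their markers, Tnf differed by 1.86 and Tnfaip3 by -2.17. That leaves leukemia 14 alone against preleukemic samples 18 and 19, so the fit's spread comes from the other groups and a single WT leukemia is assumed to vary like them, and no call is drawn from it. With Xist as a covariate 8 passed too, but sex and stage coincided in WT mice, so that fit cannot separate them. Without WT preleukemic sample 19, 5 passed. Several marker lists also differed between the WT stages (exact permutation p of 0.1 or more for each), with the B cell precursor mean differing by -1.89 (9 of 11 fell in limma), the megakaryocyte mean by 3.01 (5 of 6 rose), the monocyte mean by 1.71 (5 of 12 rose) and the stroma mean by 1.42 (7 of 10 rose, 1 fell). The neutrophil mean differed by 1.83 and the erythroid mean by 0.98, with 0 of 14 and 3 of 5 markers passing. Their part in the differences of the 9 genes was not tested.

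Nfkbie measured 10.50, 10.30 and 9.45 in WT preleukemic samples 18, 19 and 20 (10.08 ± 0.56, SD, n = 3). WT leukemias 14, 15 and 17 measured 8.37, 8.10 and 7.85 (8.11 ± 0.26, SD, n = 3). The groups were more than 1 log2 unit apart, and Nfkbie fell 3.94-fold (-1.98, SE 0.25, limma adjusted p = 4.83e-06). Tnfaip3 measured 10.05, 9.26 and 8.64 (9.32 ± 0.71, SD, n = 3) and then 7.49, 7.45 and 7.21 in leukemia (7.38 ± 0.15, SD, n = 3). All 3 leukemias were below all 3 preleukemic samples, a 3.82-fold fall (-1.93, SE 0.35, adjusted p = 0.000265). Nfkbia measured 11.70, 11.43 and 10.72 (11.28 ± 0.51, SD, n = 3) and 9.06, 9.75 and 10.30 in leukemia (9.70 ± 0.62, SD, n = 3). Leukemia 17 and preleukemic sample 20 were the nearest to each other, and the fall was 2.99-fold (-1.58, SE 0.34, adjusted p = 0.00132).

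Birc3 measured 10.42, 9.84 and 9.41 in WT preleukemic samples 18 to 20 (9.89 ± 0.51, SD, n = 3) and 8.10, 8.26 and 8.45 in leukemias 14, 15 and 17 (8.27 ± 0.18, SD, n = 3). The stages did not overlap, and it fell 3.07-fold (-1.62, SE 0.26, limma adjusted p = 6.81e-05). Tnf measured 6.37, 6.59 and 7.10 (6.69 ± 0.37, SD, n = 3) and 8.34, 9.05 and 7.81 in leukemia (8.40 ± 0.62, SD, n = 3). Tnf was highest in leukemia 15 and, before leukemia, in sample 20. The monocyte marker level of sample 20, 7.39, stood above the 6.28 and 6.35 of samples 18 and 19. Its neutrophil (10.68), NK cell (8.55) and plasmacytoid dendritic cell (10.13) levels were also the highest of its group. In leukemias 14, 15 and 17 the monocyte levels were nearly equal, at 8.38, 8.36 and 8.40. Tnf rose 3.28-fold (1.71, SE 0.33, limma adjusted p = 0.000505). With the marker covariate the difference of 0.83 did not pass (adjusted p = 0.0883).

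In WT mice the subunits gave smaller differences than the feedback targets, and less secure ones when 1 sample was left out. Nfkb2 measured 9.81, 9.59 and 8.95 before leukemia (9.45 ± 0.45, SD, n = 3) and 8.08, 8.51 and 8.37 in leukemia (8.32 ± 0.22, SD, n = 3), a difference of -1.13 (SE 0.35, limma adjusted p = 0.0149). This call was lost without leukemia 14, preleukemic sample 18 or preleukemic sample 19 (adjusted p up to 0.0771). Relb measured 7.64, 7.73 and 7.06 (7.48 ± 0.36, SD, n = 3) and 6.58, 6.83 and 6.62 in leukemia (6.68 ± 0.13, SD, n = 3), a difference of -0.80 (SE 0.23, adjusted p = 0.00915) that was lost without preleukemic sample 19 (adjusted p = 0.0565). Sample 20 was the lowest preleukemic sample for both genes. Rel measured 11.44, 11.07 and 10.80 (11.10 ± 0.32, SD, n = 3) and 10.51, 10.19 and 10.82 in leukemia (10.51 ± 0.32, SD, n = 3). Leukemia 17 lay just above preleukemic sample 20, and the difference of -0.60 (SE 0.20, adjusted p = 0.0246) was lost without leukemia 14 or 15 or preleukemic sample 18 or 19 (adjusted p up to 0.146). Rela measured 9.75, 10.02 and 9.61 (9.79 ± 0.21, SD, n = 3) and 9.60, 9.51 and 9.52 in leukemia (9.54 ± 0.05, SD, n = 3). The WT difference of Rela, -0.25 (SE 0.11, adjusted p = 0.0641), did not pass with all samples and passed without preleukemic sample 20 (adjusted p = 0.0167).

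**Figure D2:**
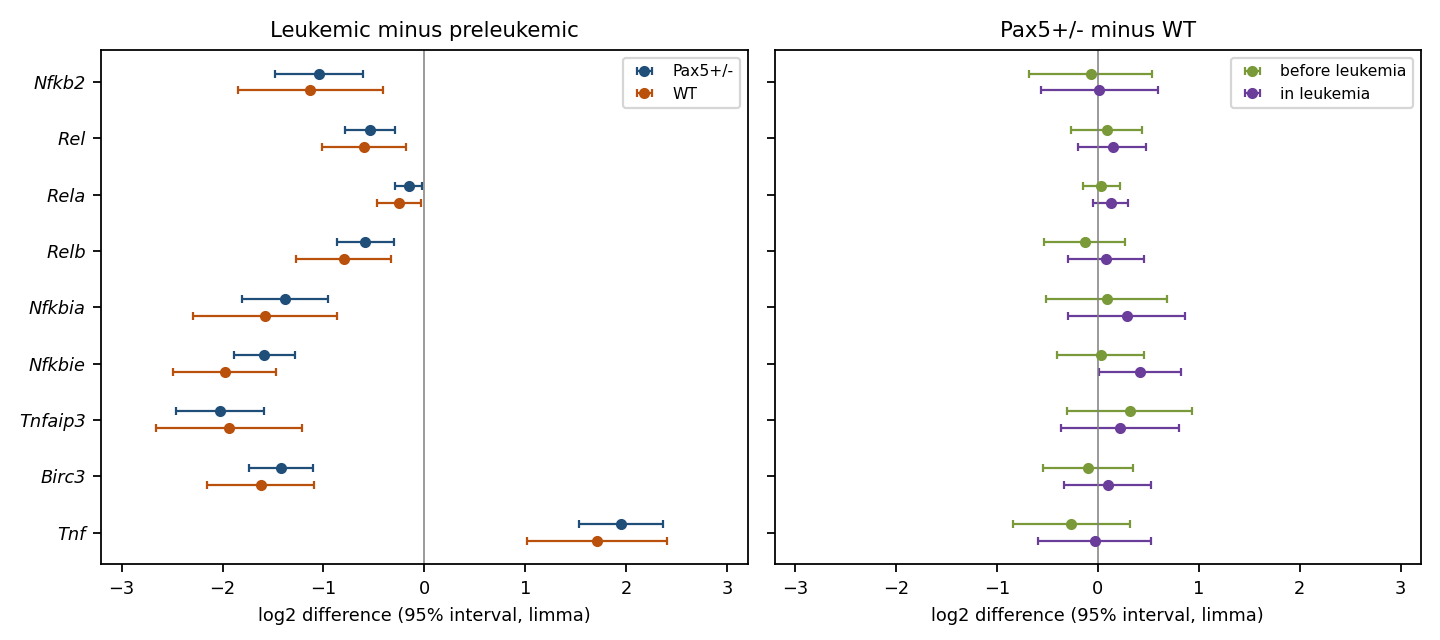
Log2 differences of the 9 NF-kB genes between stages in each genotype (left panel) and between genotypes at each stage (right panel), with points for the limma estimate and bars for its 95% interval (10 and 7 Pax5+/- samples, 3 and 3 WT samples). Stage differences are below 0 for 8 genes and above 0 for Tnf in both genotypes, and genotype differences lie between -0.26 and 0.42.

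The genotypes were compared at each stage, which asks whether loss of 1 Pax5 copy goes with other levels of these genes in irradiated mice. None of the 9 passed before leukemia, where 0.624% of genes tested did in limma. At an unadjusted p of 0.05 it was 0 of the 9, against 8.97% of genes. In leukemia, where 0.341% passed, 0 of the 9 passed and 1, Nfkbie, had an unadjusted p under 0.05, against 5.89% of genes. Before leukemia the largest difference was that of Tnfaip3, at 0.32 (95% interval -0.30 to 0.93, limma adjusted p = 0.867, exact permutation p = 0.433), and the smallest was that of Nfkbie, at 0.03 (-0.40 to 0.46, adjusted p = 0.999). Tnf differed by -0.26 (-0.84 to 0.32), Relb by -0.13 (-0.53 to 0.27) and Birc3 by -0.10 (-0.54 to 0.35). Nfkbia and Rel both differed by 0.09 (-0.51 to 0.69 and -0.26 to 0.44), Nfkb2 by -0.07 (-0.68 to 0.54) and Rela by 0.03 (-0.15 to 0.22). The intervals leave room for differences of over 0.5 on the log2 scale in 6 of the 9 genes, and the design does not show that the genotypes were alike.

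In leukemia Nfkbie was 0.42 higher in Pax5+/- samples (95% interval 0.01 to 0.83, limma adjusted p = 0.825, unadjusted p = 0.0455, exact permutation p = 0.0629), with 7 of 10 above all 3 WT leukemias. Rela was 0.13 higher (-0.05 to 0.30, adjusted p = 0.989, exact permutation p = 0.0559), also with 7 of 10 above all WT leukemias. Neither passed with adjustment over all genes. The other differences ran from -0.03 for Tnf (-0.59 to 0.53) to 0.29 for Nfkbia (-0.29 to 0.86), with 0.23 for Tnfaip3 (-0.36 to 0.81), 0.15 for Rel (-0.19 to 0.48), 0.10 for Birc3 (-0.33 to 0.53), 0.08 for Relb (-0.29 to 0.46) and 0.02 for Nfkb2 (-0.56 to 0.60). The difference between the stage changes of the genotypes was tested as an interaction, which 0.0965% of genes tested passed. None of the 9 did in limma, at the adjusted or at an unadjusted p of 0.05, the latter against 7.19% of genes. Its value ran from -0.09 for Tnfaip3 (-0.94 to 0.76, adjusted p = 0.990) to 0.39 for Nfkbie (-0.21 to 0.99, adjusted p = 0.861).

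Within the 10 Pax5+/- leukemias, the genes varied together to different degrees. Of 36 pairs, 31 had a Pearson r above 0, the median r was 0.64, and 10 pairs passed a Benjamini-Hochberg adjusted permutation p of 0.05 by both Pearson and Spearman. Nfkb2 and Relb gave r = 0.94 (permutation p = 0.00015, adjusted p = 0.0024) and Spearman rho = 0.89 (permutation p = 0.0012, adjusted p = 0.0101). Without leukemias 2 and 9, the farthest from the median of Nfkb2, r was 0.79. Relb and Tnfaip3 gave r = 0.89 (permutation p = 9e-05, adjusted p = 0.0024) and rho = 0.92 (permutation p = 0.00037, adjusted p = 0.0101), with r = 0.84 without leukemias 2 and 3. Nfkbie and Tnfaip3 gave r = 0.85 (permutation p = 0.0022, adjusted p = 0.0103) and rho = 0.88 (permutation p = 0.0014, adjusted p = 0.0101), with r = 0.89 without leukemias 3 and 7. Tnfaip3 and Birc3 gave r = 0.88 (permutation p = 0.00091, adjusted p = 0.00655) and rho = 0.90 (permutation p = 0.0009, adjusted p = 0.0101), with r = 0.69 without leukemias 2 and 9. Leukemia 2 was highest and leukemia 9 lowest for Nfkb2, Relb, Tnfaip3, Birc3 and Tnf. Nfkb2 and Tnf, by contrast, gave r = 0.83 (permutation p = 0.005, adjusted p = 0.018) and rho = 0.61 (permutation p = 0.067, adjusted p = 0.162), and r fell to 0.32 without leukemias 2 and 9, so that this relation rests on those samples.

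The levels were also set against the mean levels of 11 sets of cell type markers in the same 10 leukemias, in 99 relations. One passed by both measures, that of Tnf with mature B cell markers (r = 0.94, permutation p = 0.00012, adjusted p = 0.0119; rho = 0.94, permutation p = 0.00018, adjusted p = 0.0178), with r = 0.93 without leukemias 2 and 9. Only 3 of the 7 mature B cell markers lay above the array median in every Pax5+/- leukemia, so the list mean rests partly on low signals. Between the stages this marker level did not follow Tnf, since it ran from 6.99 to 8.22 in the Pax5+/- leukemias and from 7.50 to 8.01 in preleukemic cells. Tnf with monocyte markers gave r = 0.87 (permutation p = 0.0016, adjusted p = 0.0533) and rho = 0.77 (permutation p = 0.012, adjusted p = 0.23), and r was 0.54 without leukemias 2 and 9. Nfkb2 with monocyte markers gave r = 0.89 (permutation p = 0.0023, adjusted p = 0.0533) and rho = 0.75 (permutation p = 0.017, adjusted p = 0.284), and r was 0.48 without leukemias 2 and 9. Stromal and endothelial markers gave r = 0.84 with Nfkb2 (permutation p = 0.0027, adjusted p = 0.0533; rho = 0.92, permutation p = 0.0005, adjusted p = 0.0247), and r was 0.67 without leukemias 2 and 9 and 0.82 without leukemia 2 alone. With Tnf these markers gave r = 0.86 (permutation p = 0.0018, adjusted p = 0.0533; rho = 0.77, permutation p = 0.011, adjusted p = 0.23), with r = 0.64 and 0.82 without the same samples. The part of these cells in the levels was not tested.

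**Figure D3:**
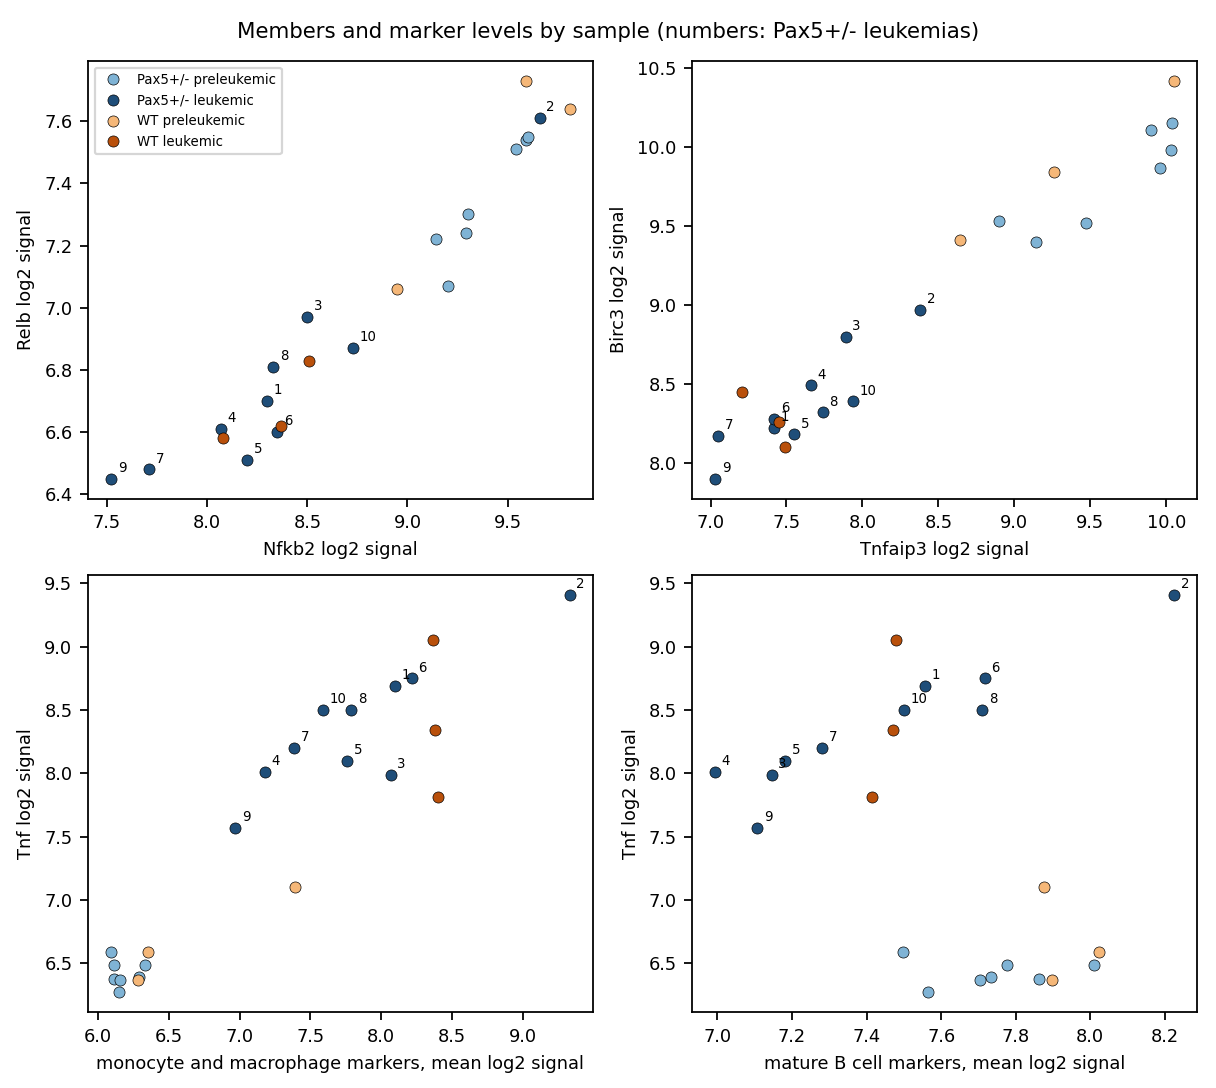
Each point is a sample of 1 of the 4 groups, on log2 signal axes. The upper panels plot Relb against Nfkb2 and Birc3 against Tnfaip3, and the lower panels plot Tnf against the mean level of monocyte and of mature B cell markers, with Pax5+/- leukemias numbered. Leukemia 2 has the highest Nfkb2, Relb, Tnfaip3, Birc3 and Tnf of the Pax5+/- leukemias, and Tnf separates the stages while the mature B cell marker level does not.

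Among the 7 Pax5+/- preleukemic samples, those whose mouse numbers carry the letter L (21 to 23) lay above all those with the letter I (11 to 13 and 24) for 6 of the 9 genes: Nfkb2, Rel, Rela, Relb, Nfkbie and Tnfaip3. Over all genes tested, 5.3% had the L samples above all I samples and the samples of the 2 letters did not overlap in 7.8%. Tnfaip3 measured 9.96 to 10.04 in the L samples and 8.90 to 9.90 in the I samples, and Rel 11.43 to 11.53 against 10.88 to 11.19. The meaning of the letter is not given in the labels, this split was chosen after the values were seen, and it was not tested. The Pax5+/- leukemias carried the letters U (1 to 5), Y (6 to 9) and L (10). Only L occurred at both stages, so letter and stage largely coincided.

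By the residual pattern over the 23 arrays, after each group's mean was subtracted, the gene most like Nfkb2 was Relb (Pearson r = 0.92), followed by Bcl3 (0.91), which encodes a nuclear IkB-family partner of p50 and p52. Relb was followed by Tnip1 (0.89), which encodes a binding partner of A20. The genes most like Tnfaip3 were Birc3 (0.88) and Nfkbie (0.84), and those most like Birc3 were Tnfaip3 and Skil (0.85). Nfkbie was followed by Dusp5 (0.75) after Tnfaip3. Those most like Tnf were Ptafr, the receptor for platelet-activating factor, and Nod1, a sensor of bacterial peptidoglycan (0.85 each). The highest values for Rel were with Rsbn1l (0.90) and Phip (0.85), for Rela with Zfp628 and Dnajb12 (0.84 each), and for Nfkbia with Bicc1 and Me3 (0.83 each). Without leukemia 2 the value of Nfkb2 and Relb was 0.85, that of Nfkb2 and Bcl3 0.82 and that of Tnf and Nod1 0.77.

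Of 89 further genes of the pathway that were tested, 59.6% passed between the stages in Pax5+/- mice and 34.8% in WT mice, close to the 64.6% and 37.2% of all genes. In Pax5+/- mice 23 were higher and 30 lower, and in WT mice 9 and 22. Over all genes tested, 28.0% were higher and 36.5% lower in Pax5+/- mice, and 17.9% and 19.3% in WT mice. The same shares stand behind the counts by list below. Of the 29 that passed in both genotypes, 21 were lower in both and 8 higher in both. The directions of all genes that passed in both genotypes were not counted, so this split does not set the pathway apart. None of the 89 passed a genotype comparison or the interaction in limma, where 5 before leukemia, 8 in leukemia and 5 for the interaction had an unadjusted p under 0.05, against 8.97%, 5.89% and 7.19% of all genes tested. The lists and their counts describe the pathway and are not independent of earlier results on these samples.

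Among 16 receptors and ligands, 7 rose and 2 fell in Pax5+/- mice (median difference 0.21, against -0.05 over all genes) and 2 rose and 2 fell in WT mice. The TNF receptor genes Tnfrsf1a (3.86-fold, log2 SE 0.18, adjusted p = 1.45e-08 in limma) and Tnfrsf1b (2.01-fold, SE 0.10, adjusted p = 1.45e-08) rose in Pax5+/- leukemias. Tnfrsf1a also rose in WT mice (2.78-fold, adjusted p = 0.000855), and did not pass there with the marker covariate (0.64 on the log2 scale, adjusted p = 0.139). Il1a, which encodes the cytokine IL-1 alpha, rose 2.49-fold in Pax5+/- and 2.57-fold in WT mice, and passed in neither with the marker covariate (adjusted p = 0.318 and 0.476). Cd40, a costimulatory receptor of B cells that signals through both branches, fell 2.96-fold in Pax5+/- mice (SE 0.24, adjusted p = 1.13e-05). Cd40 was lower in WT mice as well, by log2 differences of -1.58 to -1.20 with 1 sample left out, and passed in 4 of those 6 fits. Tlr9, the receptor for unmethylated DNA, fell 2.66-fold in WT mice (SE 0.28, adjusted p = 0.000683). Tlr9 was lower in Pax5+/- mice too, at -0.95 to -0.79 with 1 sample left out (limma adjusted p up to 0.000601).

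Among 24 kinases and adaptors, 5 rose and 11 fell in Pax5+/- mice (median -0.16), and 2 rose and 8 fell in WT mice. Traf6, the ubiquitin ligase that relays Toll-like and IL-1 receptor signals, fell 2.55-fold in Pax5+/- (SE 0.09, limma adjusted p = 1.25e-10) and 2.72-fold in WT mice. Traf5, an adaptor of TNF receptor family members, fell 2.71-fold and 2.69-fold, and the kinase C gene Prkcd fell 1.84-fold and 2.29-fold. Irak1, the kinase upstream of Traf6, rose 1.84-fold in Pax5+/- mice (SE 0.06, adjusted p = 1.25e-10). Irak1 was higher in WT mice too, by 0.55 to 0.64 on the log2 scale with 1 sample left out (limma adjusted p up to 0.00157). Among 21 other inhibitors and ubiquitin regulators, 4 rose and 9 fell in Pax5+/- mice (median -0.14), and 0 rose and 7 fell in WT mice. Nfkbid, which encodes the nuclear IkB protein IkB-NS, fell 5.12-fold in Pax5+/- (SE 0.24, adjusted p = 5.31e-08) and 4.43-fold in WT mice. Sharpin (1.72-fold and 1.91-fold lower) and Rnf31 (1.30-fold and 1.33-fold lower) encode parts of the linear ubiquitin ligase complex, which is known to promote signalling and not to inhibit it. Tnip2, whose product binds A20, rose 1.32-fold in Pax5+/- mice (SE 0.06, adjusted p = 1.95e-05).

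Among 28 other targets, 7 rose and 8 fell in Pax5+/- mice (median -0.04), and 5 rose and 5 fell in WT mice. Bcl2l1, which encodes the survival protein Bcl-xL, fell 4.81-fold in Pax5+/- (SE 0.14, limma adjusted p = 3.39e-11) and 3.04-fold in WT mice, and the adhesion receptor gene Cd44 fell 2.92-fold and 2.73-fold. Vcam1, an adhesion molecule of stroma and macrophages that is also in the monocyte marker list, rose 8.39-fold in Pax5+/- (SE 0.24, adjusted p = 1.23e-09) and 11.9-fold in WT mice. Ccnd1, which encodes cyclin D1, rose 14.8-fold in Pax5+/- mice (SE 0.48, adjusted p = 6.23e-07). Ccnd1 was higher in WT mice as well, by 1.77 to 3.05 on the log2 scale with 1 sample left out, and passed in only 2 of those 6 fits. Targets thus did not share 1 direction.

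**Figure D4:**
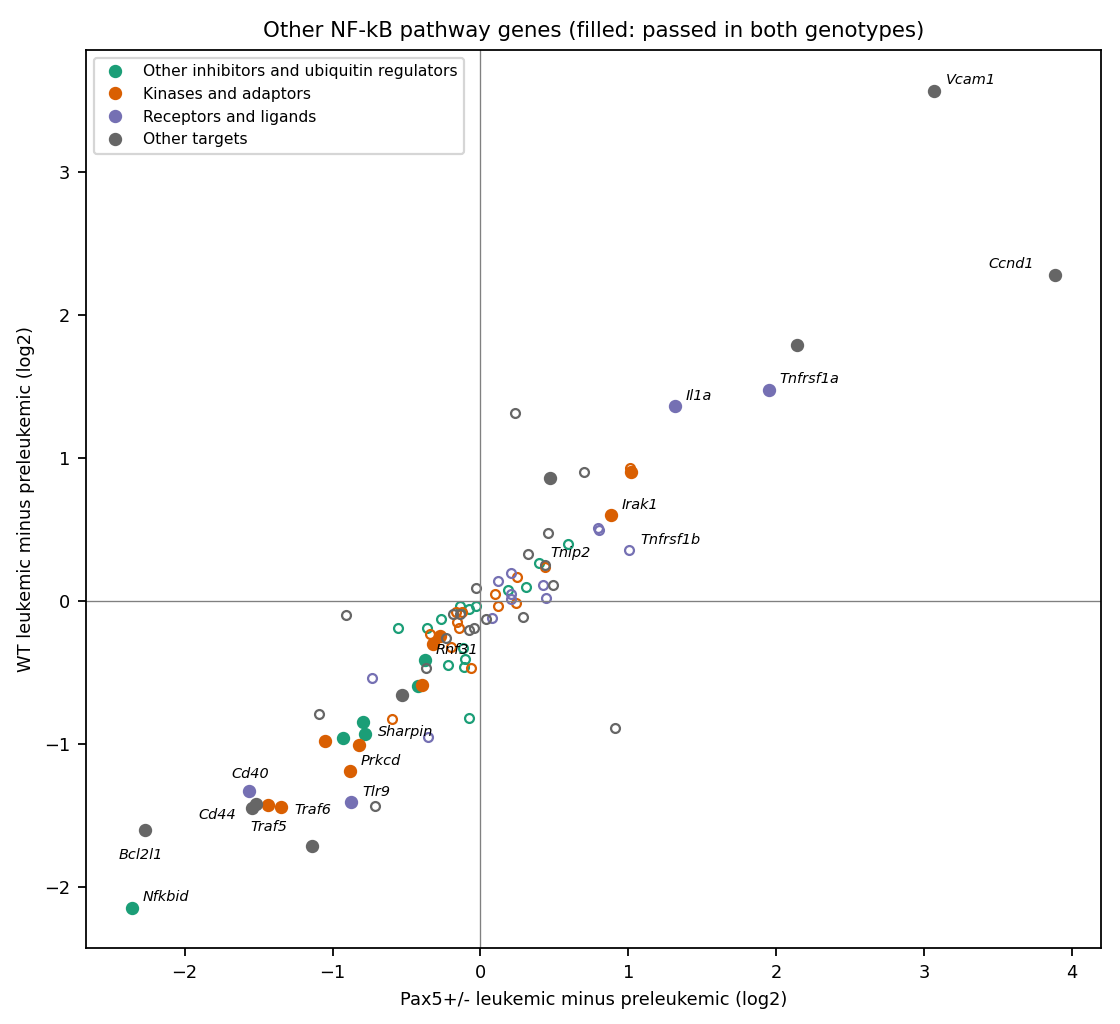
Each point is 1 of the 89 other pathway genes tested, with its log2 difference between stages in Pax5+/- mice on the horizontal axis and in WT mice on the vertical axis, coloured by list. Filled points passed in both genotypes, 21 in the lower left and 8 in the upper right. The same split over all genes tested was not counted. Names are given for genes chosen by smallest p in each list.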

How the data were processed

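Per the labels, total RNA was extracted with Trizol, biotinylated and hybridised to 1-colour arrays. The deposited values are log2 signals per probe set that the authors made with Transcriptome Analysis Console, per the submitters' processing notes, and its version, background correction and normalization are not given in the sources used here. Of 28944 probe sets, 21789 carried 1 gene symbol in the platform annotation; those with several (1621) or none (5534) were left out. Genes above the array's 30th percentile on 3 or more arrays were tested, which left 15542 of 19938.

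A single limma model held all 4 groups (limma 3.58.1 in R 4.3.3; eBayes with intensity trend, two-sided, Benjamini-Hochberg over all genes tested, threshold 0.05). Folds are 2 raised to the log2 difference. Exact two-sided permutation tests of single genes and 100000-resample permutation tests of correlations were run in Python 3.11.15 with SciPy 1.17.1. Figures were drawn with matplotlib 3.10.9. The series' design text gives the samples as separate mice; no 2 arrays shared over 3.5% of values. In simulated data a log2 change of 1 was recovered in 88.1% of changed genes for the Pax5+/- stages and 85.1% for the WT stages. It was recovered in 92.5% and 98.5% for the genotypes before and in leukemia and in 77.6% for the interaction. Between 6 and 16 unchanged genes were called. The simulation changed few genes and gave each gene the same spread in all groups, unlike these data. Its percentages are thus not the power of these comparisons.

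All 9 measured members are named. From each pathway list up to 4 passing genes of smallest p in the Pax5+/- stage comparison and up to 3 in each other comparison are named, and for each member the 2 genes of most similar residuals. Members and lists were chosen with earlier results of these data known. Alternatives were no filter, a 50th percentile filter, no trend, robust priors, quantile normalization, array weights, median centring, only the 2 groups compared, all probe sets, Xist or marker level as covariate, mouse-number letter as a block, and leaving out each sample.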

Additional observations from a re-analysis of the deposited data

Results flagged for a closer look

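Relb in Pax5+/- leukemia 2 measured 7.61 on the log2 scale, apart from the other 9 leukemias of its group, the nearest of which measured 6.97. The gap was 0.552 of the whole range of the group. The check was made on 18 groups (9 genes in 10 Pax5+/- leukemias and in 7 Pax5+/- preleukemic samples), and 1 sample stood apart. By chance such a check marks about 1 in 20 groups.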

How the results depend on the processing

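In the stage comparisons the 9 genes kept their direction under every alternative. The mouse-number letter largely coincided with stage in Pax5+/- mice, so the block fit cannot separate letter from stage. Likewise, the Xist covariate cannot separate sex from stage in WT mice, where they coincided. All 9 passed in Pax5+/- mice except with the marker covariate (7), with median centring and with I-numbered preleukemic mice only (8 each), and leaving out 1 sample gave 8 to 9. In WT mice 8 passed, with 6 under the marker covariate, 7 with array weights or with only the 2 groups compared, and 9 with quantile normalization; leaving out 1 sample gave 5 to 9, with 5 without preleukemic sample 19 and 9 without preleukemic sample 20. No gene passed a genotype comparison or the interaction under any alternative, and the signs there were not stable.

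Values of the opposite sign to those reported were as follows. With I-numbered preleukemic mice only, the genotype difference before leukemia was -0.028 for Nfkbia, -0.15 for Nfkbie, -0.13 for Rel and -0.026 for Rela, and the interaction was 0.19 for Tnfaip3. With L-numbered mice only, the first was 0.11 for Birc3, 0.13 for Nfkb2 and 0.057 for Relb, and the interaction was -0.008 for Birc3, -0.11 for Nfkb2 and -0.235 for Rel. With Xist as a covariate, Nfkbia (-0.065) and Nfkbie (-0.063) before leukemia, Tnf in leukemia (0.080) and the interaction of Tnfaip3 (0.10) turned. With the marker covariate, Nfkb2 (0.12), Nfkbie (-0.019), Rela (-0.007) and Tnf (0.037) before leukemia and Tnf in leukemia (0.30) turned, as did the WT stage difference of Ccnd1 (-0.004, against 2.28). Without WT samples 15, 17 and 20, Nfkbia (-0.19), Nfkbie (-0.29), Rel (-0.062), Rela (-0.059) and Tnfaip3 (-0.021) before leukemia, Tnf in leukemia (0.032) and the interaction of Tnfaip3 (0.14) turned; the WT arms are then leukemia 14 alone and preleukemic samples 18 and 19, so values in leukemia and interactions rest on a single WT leukemia. Without Pax5+/- leukemias 2, 6 and 7, Nfkb2 in leukemia (-0.084) and its interaction (-0.014) turned. The letter, 15, 17 and 20, and 2, 6 and 7 subsets were chosen after seeing the data. The cause was not tested.

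Leaving out 1 sample at a time, the sign turned within these ranges. Before leukemia they were -0.34 to 0.17 for Birc3, -0.32 to 0.11 for Nfkb2, -0.19 to 0.299 for Nfkbia, -0.29 to 0.24 for Nfkbie, -0.062 to 0.26 for Rel, -0.059 to 0.15 for Rela and -0.021 to 0.68 for Tnfaip3. In leukemia they were -0.13 to 0.11 for Nfkb2, -0.036 to 0.58 for Nfkbia, -0.010 to 0.305 for Rel, -0.010 to 0.16 for Relb and -0.32 to 0.297 for Tnf. For the interaction they were -0.067 to 0.44 for Birc3, -0.093 to 0.34 for Nfkb2, -0.13 to 0.49 for Nfkbia, -0.11 to 0.215 for Rel, -0.018 to 0.19 for Rela, -0.062 to 0.56 for Tnf and -0.46 to 0.245 for Tnfaip3.

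Over all genes, the count that passed fell from 10034 to 4515 (Pax5+/- stages) and from 5780 to 2962 (WT stages) with the marker covariate, and the latter to 3537 with only the 2 groups compared and to 3794 without WT preleukemic sample 19. The count for the genotypes in leukemia, 53, ran from 0 without WT leukemia 15 to 160 without WT leukemia 14, that before leukemia, 97, from 40 without WT preleukemic sample 19 to 231 with only the 2 groups compared, and that for the interaction, 15, from 3 with L-numbered mice only to 98 without WT leukemia 14. Among the other pathway genes named for WT mice, Tnfrsf1a (adjusted p = 0.0683) and Rnf31 (0.0957) did not pass with only the 2 groups compared.

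No paired analysis was made because the series' design text gives the samples as separate mice. With 3 WT samples a stage, genotype differences have wide intervals.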
